A study of Mus musculus with 8 samples.

Results

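The response of parental A223 cells to largazole was described from 4 of the 8 libraries of the study: 2 libraries of parental cells given the vehicle DMSO and taken at 0 h, and 2 libraries of parental cells given 100 nM largazole and taken at 18 h. The 4 were chosen by genotype and treatment label, not by any measured value, and were compared across all genes with enough counts. The other 4 libraries hold the same DMSO and largazole groups of A223 cells with a PRDX6 knockdown (KD), and they served to estimate the spread and as an independent measure of untreated gene levels. Polyadenylated RNA was sequenced, and gene levels are given in CPM, the counts of a gene relative to its library's total after scaling by the trimmed mean of M values (TMM). No vehicle library was taken at 18 h, so the drug and the 18 h in culture changed together and cannot be told apart. No source used here says that the replicates came from separate cultures, so a p-value here sets a difference against the scatter of these libraries only, and that scatter may be technical.

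A223 is a mouse squamous cell carcinoma line, and it is the only line here. Largazole is a cyclic depsipeptide from a marine cyanobacterium. It is a prodrug whose freed thiol binds the zinc in the active site of class I histone deacetylases, the enzymes HDAC1, HDAC2 and HDAC3 that remove acetyl groups from histone tails within corepressor complexes such as NuRD, Sin3, CoREST and NCoR. Inhibitors of these enzymes raise histone acetylation, are known to switch on genes that chromatin keeps silent, and are known to slow the cell cycle, in many carcinoma lines with induction of the CDK inhibitor p21.

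Library totals were alike, 13798502 and 15033326 counts with DMSO and 14399173 and 14609860 with largazole. A count was found for 13362 and 13461 of the 24411 genes with DMSO and for 14711 and 14716 with largazole. One transcript differed widely between the largazole replicates: the ribosomal precursor Rn45s stood at 7739 CPM in replicate 1 and at 950 CPM in replicate 2. Leaving it out changed the totals of called genes to 3357 higher and 2827 lower, from 3349 and 2826. Without Rn45s the replicates still differed by more than counting error, more so with largazole (chi-square per degree of freedom 4.5) than with DMSO (2.04). The markers of the labelled cell type were only partly present. The simple epithelial keratin Krt8 stood at 2036 and 1908 CPM with DMSO and its partner Krt18 at 97.8 and 94.8 CPM, and the integrin chains of epithelial basement membrane contacts were present (Itga6 at 391 and 389 CPM, Itgb4 at 98.0 and 92.9 CPM). The defining squamous keratins Krt5 and Krt6a were each found with at most 2 counts in a library, the squamous master regulator Trp63 had 0 counts in both DMSO libraries (11 and 6 with largazole), and Pitx1 had 0 in all 4. Fibroblast-type genes were high, with the collagen gene Col1a1 at 1185 and 1177 CPM with DMSO. The summed level of 10 fibroblast markers was 3890 and 3877 CPM with DMSO and 3756 and 3827 CPM with largazole, with Lum at 0 in all 4 libraries. In bulk RNA fewer cells of a type and less RNA per cell cannot be told apart.

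A gene is "called" below at a Benjamini-Hochberg adjusted p under 0.05 in the quasi-likelihood test of edgeR. By that threshold the level of 6175 of the 12517 genes tested (49.3%) differed between DMSO at 0 h and largazole at 18 h. Of these, 3349 (26.8% of those tested) were higher and 2826 (22.6%) were lower, and the median log2 fold change of all genes tested was 0.03. The numbers in the 2 directions were similar but the sizes were not. At least 2-fold changes numbered 1659 higher (13.3%) and 461 lower (3.68%), and at least 4-fold changes 878 higher (7.01%) and 44 lower (0.352%). Genes called higher took 15.3% of the counts in each DMSO library and 24.6% and 24.8% in the largazole libraries. Genes called higher by at least 4-fold took 0.13% and 0.128% with DMSO and 1.02% in each largazole library. Counts of list members below are to be read beside the 26.8% higher and 22.6% lower over all genes tested. Lack of overlap between the 2 groups was common. Without overlap, 42.2% of the genes tested lay higher with largazole and 38.9% lower, whether called or not. With upper-quartile scaling the median of all genes moved to 0.11 and 3850 genes were higher and 2222 lower. Small changes below are therefore relative to the TMM scale. With only the 4 parental libraries fitted, 4004 genes were higher and 3859 lower. That fit leaves out the KD largazole replicates, whose scatter was the widest (SD over genes of the log2 difference between replicates 0.359). Leaving out 1 parental library at a time left 2309 to 2512 genes higher and 1914 to 2012 lower.

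**Figure D1:**
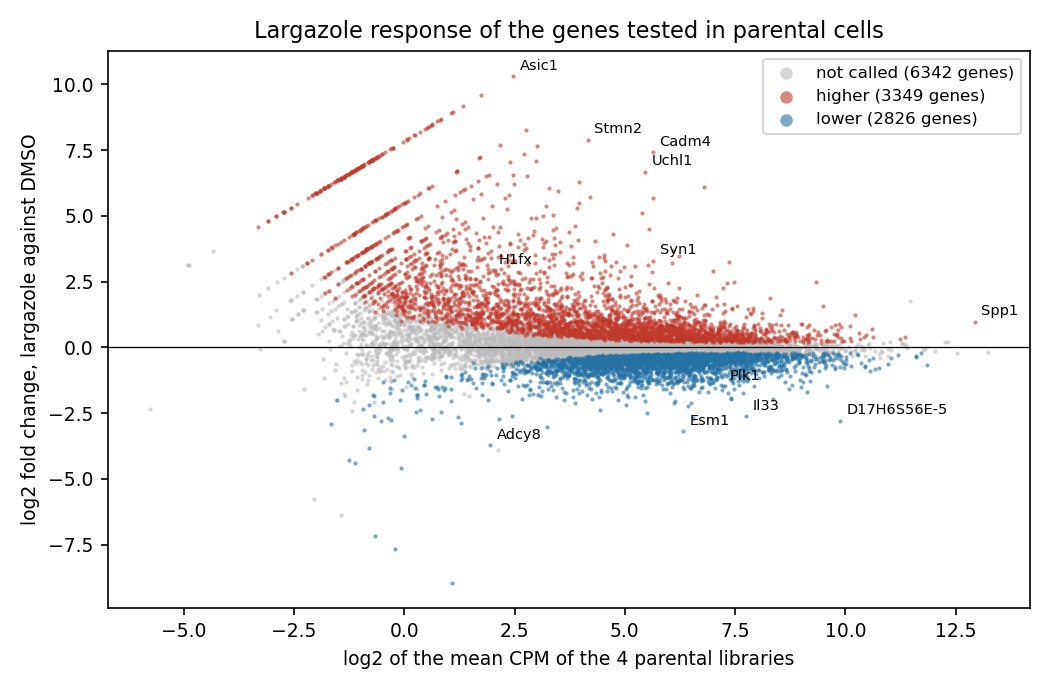
Each point is a tested gene, with the log2 of its mean CPM over the 4 parental libraries on the x axis and its log2 fold change, largazole at 18 h against DMSO at 0 h, on the y axis. Red points are the 3349 genes called higher and blue points the 2826 called lower; the rays of points at the upper left are genes with 0 to a few counts with DMSO, and the large changes are nearly all upward.

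The direction of the response followed how strongly a gene was used in untreated cells. To keep the grouping free of the parental libraries, genes were grouped by their mean CPM in the KD DMSO libraries. In parental cells the median log2 ratio of CPM + 0.5, largazole to DMSO, was 0.49 for the 1664 genes at 0.1 to 1 CPM and 0.48 for the 1381 genes at 1 to 5 CPM, then 0.11 for the 2497 genes at 5 to 20 CPM. It was below 0 in each group above that, and reached -0.16 for the 596 genes at 300 CPM or more. All 1381 genes at 1 to 5 CPM were tested, and 39.2% of them were called higher and 4.27% lower, whereas of those at 300 CPM or more 17.4% were called higher and 38.8% lower. Below 1 CPM the shares called are no measure of direction, because such genes can pass the filter on low counts through the libraries in which they are high: 946 of the 1664 genes at 0.1 to 1 CPM and 237 of the 2797 below that were tested.

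**Figure D2:**
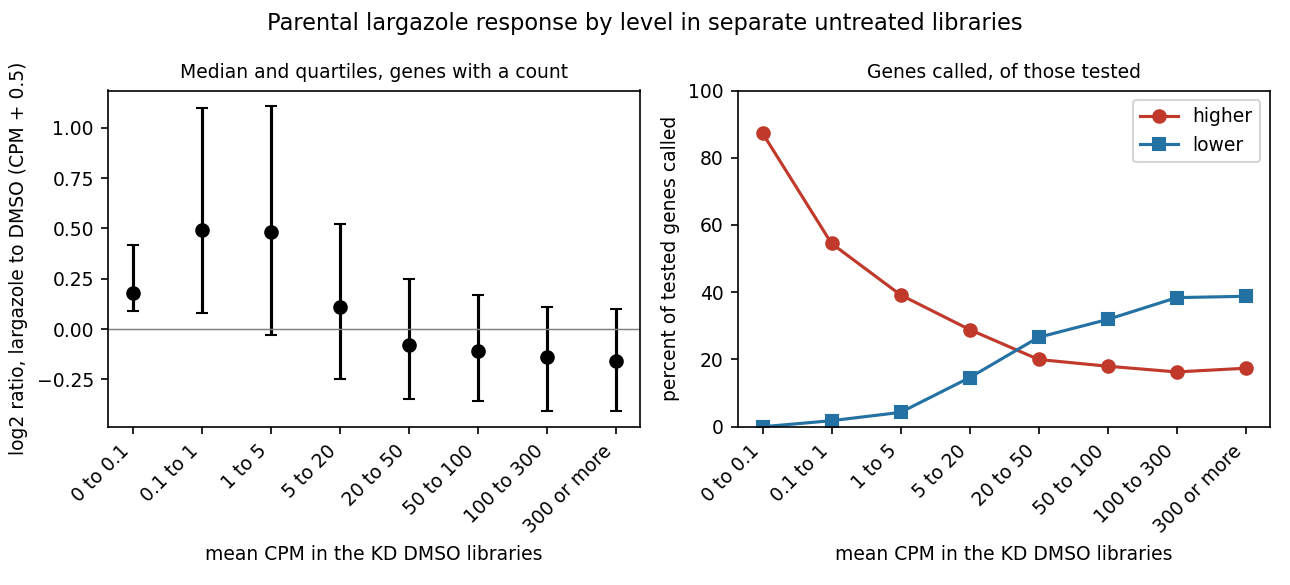
Both panels group genes by their mean CPM in the KD DMSO libraries (x axis), which are not part of the parental comparison. Left, the median (points) and quartiles (bars) of the log2 ratio of CPM + 0.5, largazole to DMSO, in parental cells; right, the percent of tested genes called higher (red) or lower (blue), which cross between 5 to 20 and 20 to 50 CPM; below 1 CPM the right panel holds only the genes that passed the filter on low counts.

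The extreme of this shift was a set of 88 genes with 0 counts in both parental DMSO libraries and at least 10 in both largazole libraries, against 3 genes in the opposite direction. Of the 88, 51 also had 0 counts in both KD DMSO libraries and 58 had at least 10 in both KD largazole libraries. Asic1, a proton-gated sodium channel of neurons on chromosome 15 (chr15:99670368-99701130, GRCm38, plus strand), had 0 and 0 counts with DMSO and 157 and 174 with largazole, 10.7 and 11.5 CPM. Against a floor of 3 counts per library that is at least 52.2-fold higher. The neuronal nitric oxide synthase Nos1 went from 0 and 0 to 62 and 67 counts. Others in the set are known from nervous and from other tissues. The epithelial adhesion molecule Epcam had 36 and 47 counts with largazole, the retinoic acid synthesis enzyme Aldh1a1 57 and 43, the nerve growth factor receptor Ngfr 39 and 46, the mammary and keratinocyte serpin Serpinb5 44 and 45, the postsynaptic protein Nrgn 34 and 42, and the brain metallothionein Mt3 50 and 54, all with 0 and 0 with DMSO. These 7, from Nos1 on, were chosen after their values were seen. The floors and intervals given here and below cover counting error only.

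Nearly silent genes led the list of raised genes too. The rule for naming genes took the 15 most raised with at least 5 CPM in the higher group and no overlap between groups, and all of them were under 1 CPM with DMSO. Cadm4, an immunoglobulin-type adhesion molecule (chr7:24482023-24504539, plus strand), stood at 0.444 and 0.675 CPM with DMSO and at 98.5 and 98.7 CPM with largazole. The groups were far apart, and the log2 fold change was 7.43 ± 0.21 (SE, adjusted p = 2.15e-08). Uchl1, the neuronal ubiquitin hydrolase used as a neuroendocrine marker, went from 0.887 and 0.81 CPM to 90.0 and 85.2 CPM (log2 fold change 6.68 ± 0.32, adjusted p = 4.46e-07), with the limit that its exons overlap the antisense gene Uchl1os and the strand setting of the counting is not given in the sources used here. Stmn2, a microtubule-destabilizing protein of growing axons, went from 1 and 3 counts to 516 and 552 (0.0739 and 0.202 CPM to 35.1 and 36.4 CPM), with a log2 fold change of 7.90 ± 0.32 that became 8.74 without DMSO replicate 2. Those named by the rule and described next had 1 to 3 counts in the DMSO libraries together, so their ratios are wide. The synaptic vesicle protein Syp had 0 and 1 counts with DMSO and 204 and 199 with largazole, a ratio of 383 (95% exact interval 68.3 to 15100). Prph, a neurofilament-class protein of peripheral neurons, had 2 and 0 against 246 and 231, a ratio of 226 (62.3 to 1880). Vgf, a secreted neuropeptide precursor, had 1 and 2 against 232 and 236, a ratio of 148 (50.4 to 721). The microtubule-binding protein tau, Mapt, had 0 and 1 against 82 and 115, and the sodium pump subunit Atp1b2 had 1 and 2 against 184 and 140. The rule also named the mitochondrial carrier Slc25a23 (1 and 1 against 192 and 199 counts), the glutathione transferase Gstt1 (0 and 1 against 96 and 97), the cyclic nucleotide phosphodiesterase Pde2a (1 and 1 against 158 and 156) and the calcium-binding Efhd1 (1 and 1 against 118 and 106).

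**Figure D3:**
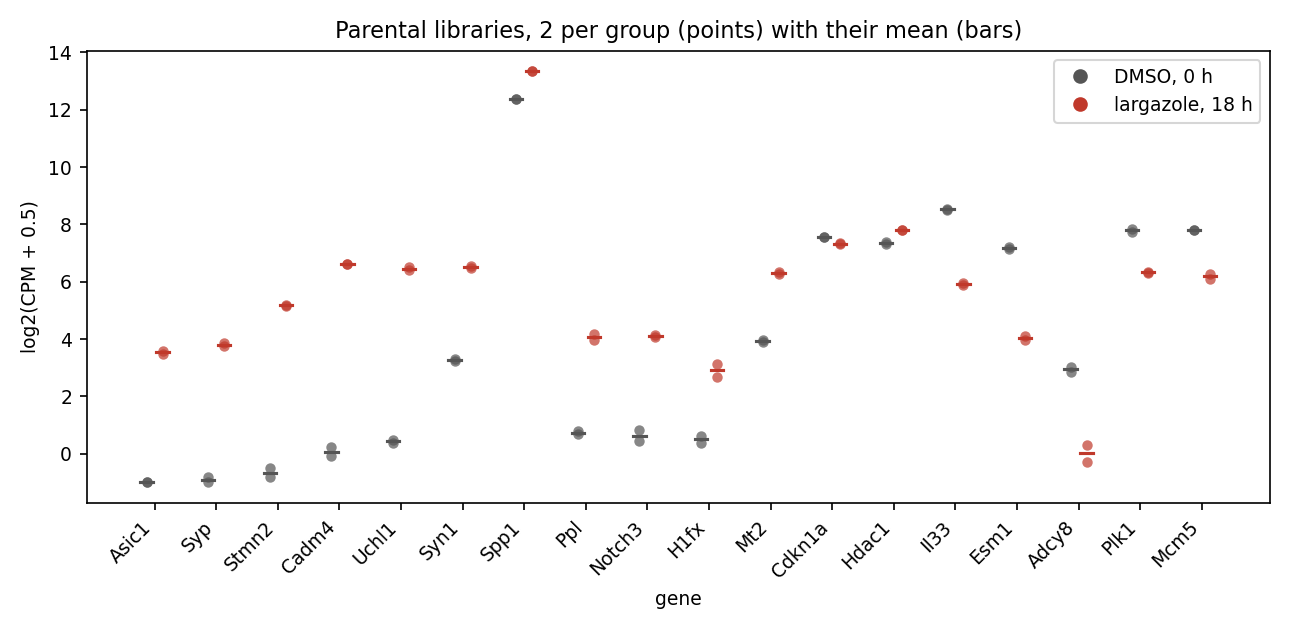
Points are log2(CPM + 0.5) of 18 genes in the 2 DMSO libraries (grey, 0 h) and the 2 largazole libraries (red, 18 h) of parental cells, and short bars are group means. Genes from Asic1 to Uchl1 lie near the lower limit with DMSO and higher with largazole, from 10.7 and 11.5 CPM for Asic1 to 98.5 and 98.7 CPM for Cadm4, while Cdkn1a and Hdac1 differ by little and Il33, Esm1, Adcy8, Plk1 and Mcm5 are lower with largazole.

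Among neuronal and neuroendocrine genes, 25 of a list of 44 were tested, and 16 were called higher (26.8% of all genes tested were) and 3 lower, with a median log2 fold change of 1.83 beside 0.03 for all genes. The list was not matched for level, and of all genes at 1 to 5 CPM in the KD DMSO libraries 39.2% were called higher. Of the 25, 7 had under 10 counts in every DMSO library of the study. They were tested only through the largazole libraries, where they had to be higher. A member with a firmer DMSO level was Syn1, the synapsin of presynaptic vesicles. It stood at 9.02 and 9.45 CPM with DMSO and at 92.6 and 89.3 CPM with largazole, without overlap, a log2 fold change of 3.30 ± 0.11 (adjusted p = 3.33e-08). Its exons overlap Araf. The neural adhesion molecule L1cam went from 0.148 and 0.607 CPM to 30.9 and 31.1 CPM, with a log2 fold change of 6.29 ± 0.29 that ranged from 5.64 to 7.61 when either DMSO library was left out. The synaptic calcium sensor Syt1 had 2 and 3 counts with DMSO and 133 and 152 with largazole, and the dendritic microtubule protein Map2 had 13 and 13 and then 206 and 155. The members that fell were neurofilament and synaptic genes that the cells already used: Nefl was at 166 and 165 CPM and then 110 and 113 CPM, and Nefm at 270 and 275 CPM and then 124 and 129 CPM. The third was Cplx2. Of a list of 36 voltage-gated ion channel genes, 16 were tested, with 8 higher and 4 lower. The calcium channel beta subunit Cacnb3 rose from 54.6 and 57.2 CPM to 163 and 154 CPM (log2 fold change 1.51 ± 0.09), and the potassium channel Kcnq5 fell from 12.5 and 11.7 CPM to 4.29 and 5.34 CPM (log2 fold change -1.33 ± 0.21). A list of germline and testis genes, often held silent by DNA methylation, stayed almost unread: 3 of 34 were tested and 1 was called higher.

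The summed level of 10 neuron markers was 9.32 and 10.1 CPM with DMSO and 147 and 146 CPM with largazole. Syn1, whose exons overlap Araf, made up most of that sum in each of the 4 libraries. The defining neuronal RNA-binding proteins Rbfox3, Elavl3 and Elavl4 were at 0 in all 4 libraries. The summed level of 10 leukocyte markers went from 4.14 and 5.13 CPM to 63.9 and 62.7 CPM. The lysosomal protein Cd68 made up nearly all of it, at 3.92 and 4.39 CPM and then 62.1 and 61.5 CPM, and the defining leukocyte genes Cd3e, Adgre1 and Tyrobp were at 0 in all 4. Of 6 red blood cell genes, Hba-a1 went from 2 and 3 counts to 146 and 160 and the other 5 were at 0. Sums over 8 endothelial and 7 melanocyte markers were 7.29 to 9.74 CPM and 6.07 to 9.56 CPM over the 4 libraries.

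A DNA element linked to neuronal silencing was searched in the promoters. REST, a repressor that recruits CoREST and class I deacetylases, binds a long element whose left part reads TTCAGCACC. In RefSeq promoter windows on GRCm38.p6, 250 bases before to 50 after each start site, those letters were found on either strand in 8 of the 845 windows of genes called higher by at least 4-fold (0.947%), in 44 of the 12160 windows of all genes tested (0.362%) and in 122 of all 32851 windows (0.371%). Among genes under 1 CPM in the KD DMSO libraries they were in 5 of the 572 windows of those raised at least 4-fold and in 1 of the 375 of those not called. The Syn1 window (chrX:20920869-20921168, minus strand) is shown because it holds a match, marked in capitals, beside the change in level given above.

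Syn1 promoter: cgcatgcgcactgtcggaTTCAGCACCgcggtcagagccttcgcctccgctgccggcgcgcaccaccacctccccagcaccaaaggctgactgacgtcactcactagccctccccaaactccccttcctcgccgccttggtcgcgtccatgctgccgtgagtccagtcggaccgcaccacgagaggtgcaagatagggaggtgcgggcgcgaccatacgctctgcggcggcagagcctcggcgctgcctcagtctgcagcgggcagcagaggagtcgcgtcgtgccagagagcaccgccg

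Genes of epithelial contacts and of keratinocyte differentiation formed a second raised group, while the summed level of the 12 squamous and keratinocyte markers moved the other way, from 2655 and 2512 CPM to 1758 and 1673 CPM. Krt8 makes up most of that sum. Of 32 epithelial junction genes 19 were tested, and 15 were called higher and none lower, although 1 was lower under 7 of 20 other settings. Their median log2 fold change was 1.55, or 0.86 with genes at 0 counts placed at their lower bound. Of the 19, 5 had under 10 counts in every DMSO library, so they were tested only through the largazole libraries. This list was not matched for level, and of all genes at 1 to 5 CPM in the KD DMSO libraries 39.2% were called higher. Jup, the plakoglobin that ties desmosomes and adherens junctions to the cytoskeleton, rose from 27.1 and 30.4 CPM to 94.2 and 94.1 CPM (log2 fold change 1.71 ± 0.10, adjusted p = 1.13e-06). Grhl2, a transcription factor of epithelial identity, rose from 2.22 and 2.02 CPM to 12.5 and 13.3 CPM (log2 fold change 2.60 ± 0.20). The tight junction claudin Cldn1 went from 3.25 and 5.47 CPM to 12.7 and 14.8 CPM, and the desmosomal plakophilin Pkp2 from 12.5 and 15.3 CPM to 23.5 and 27.0 CPM. E-cadherin itself, Cdh1, had 3 and 1 counts with DMSO and 11 and 8 with largazole, too few to be tested, and the epithelial splicing regulator Esrp1 had 0 in all 4.

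Of 34 keratinocyte differentiation and cornified envelope genes 13 were tested, with 9 higher, none lower and a median of 2.59. Of the 13, 4 had under 10 counts in every DMSO library, so they too were tested only through the largazole libraries. This list was not matched for level either. Periplakin, Ppl, a cornified envelope scaffold, went from 1.11 and 1.21 CPM to 15.2 and 17.8 CPM, a log2 fold change of 3.82 ± 0.23 (adjusted p = 1.28e-06). The envelope precursor Sprr1a went from 4.29 and 4.99 CPM to 30.6 and 25.4 CPM, a log2 fold change of 2.59 ± 0.30, and the keratin Krt80 from 1.26 and 1.75 CPM to 8.79 and 9.10 CPM. In each of these the largazole libraries lay above both DMSO libraries, as they did in 42.2% of all genes tested. Of 29 basal and squamous lineage genes 18 were tested, with 9 higher and 3 lower. The laminin chain Lamb3 rose from 0.813 and 1.08 CPM to 15.9 and 17.3 CPM (log2 fold change 4.11 ± 0.22) and the receptor Notch3 from 1.26 and 0.877 CPM to 16.4 and 17.3 CPM (log2 fold change 3.98 ± 0.26). The basal keratin Krt14 had 3 and 1 counts with DMSO and 47 and 47 with largazole. Those that fell were the pluripotency and squamous factor Sox2 (62.9 and 60.4 CPM to 24.5 and 20.9 CPM), Krt8 (2036 and 1908 CPM to 1114 and 1006 CPM, log2 fold change -0.90 ± 0.10) and Itga6 (to 266 and 289 CPM). Krt18, the partner of Krt8 in filaments, moved the other way, to 158 and 154 CPM.

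The AP-1 site TGACTCA, bound by Fos and Jun proteins and common in keratinocyte genes, was found in 68 of the 845 promoter windows of genes raised at least 4-fold (8.05%), in 503 of the 12160 windows of tested genes (4.14%) and in 1709 of all 32851 (5.2%). Among genes under 1 CPM in the KD DMSO libraries it was found in 8.57% of windows of those raised at least 4-fold and in 6.4% of windows of those not called. The Sprr1a window (chr3:92485832-92486131, minus strand, GRCm38.p6) is shown as an example with more than one match. Capitals mark the site as it reads on the other strand, TGAGTCA.

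Sprr1a promoter: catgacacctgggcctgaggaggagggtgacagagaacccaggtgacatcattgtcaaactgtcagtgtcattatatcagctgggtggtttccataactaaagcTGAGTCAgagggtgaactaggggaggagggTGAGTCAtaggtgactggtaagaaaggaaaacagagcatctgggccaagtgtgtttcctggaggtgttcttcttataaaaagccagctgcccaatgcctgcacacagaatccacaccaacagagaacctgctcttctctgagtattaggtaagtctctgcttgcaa

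Mesenchymal genes moved in both directions. Of 37 mesenchymal and extracellular matrix genes tested, 16 were higher and 12 lower, with a median of 0.19, and the lower count was 6 without DMSO replicate 2 and 7 without DMSO replicate 1 or largazole replicate 1. The smooth muscle calponin Cnn1 rose from 0.37 and 0.675 CPM to 17.8 and 16.7 CPM (log2 fold change 5.01 ± 0.30), the collagen crosslinking oxidase Loxl2 from 24.2 and 21.7 CPM to 86.8 and 85.2 CPM, and the mesenchymal surface protein Thy1 from 17.6 and 15.9 CPM to 66.7 and 58.0 CPM. Col1a1 rose to 1542 and 1544 CPM (log2 fold change 0.39 ± 0.08). The stromelysin Mmp3 fell from 31.6 and 30.4 CPM to 10.96 and 7.84 CPM, and the fibroblast regulators Pdgfra (395 and 399 CPM to 228 and 252 CPM) and Prrx1 (269 and 266 CPM to 167 and 171 CPM) fell as well. Vimentin, Vim, stood at 6489 and 6213 CPM with DMSO and at 5669 and 5410 CPM with largazole and was not called (adjusted p = 0.0766). The largest absolute gain of any gene was that of the secreted matrix phosphoprotein osteopontin, Spp1, from 5259 and 5255 CPM to 10350 and 10330 CPM (log2 fold change 0.98 ± 0.09, adjusted p = 2.04e-05). Fibronectin, Fn1, rose from 720 and 723 CPM to 1588 and 1761 CPM, and the nuclear paraspeckle RNA Neat1 from 336 and 385 CPM to 1052 and 1115 CPM.

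On the lowered side the cell division genes moved together. All 42 genes of the mitosis and G2/M list were tested and all 42 were called lower, beside 22.6% of all genes tested, with log2 fold changes from -1.57 to -0.64 and a median of -1.21. Of the 43 DNA replication and S phase genes 40 were lower and none higher (median -1.03), and of the 20 homologous recombination and Fanconi genes 19 were lower and none higher (median -1.0). Aurkb, the kinase of the chromosomal passenger complex, stood at 121 and 120 CPM with DMSO and at 39.8 and 41.5 CPM with largazole, without overlap, a log2 fold change of -1.57 ± 0.08 (adjusted p = 7.71e-07). The anaphase activator Cdc20 fell from 267 and 267 CPM to 95.1 and 85.4 CPM and the mitotic kinase Plk1 from 227 and 215 CPM to 79.3 and 81.4 CPM (log2 fold change -1.46 ± 0.09). The central spindle kinesin Kif23 fell from 136 and 134 CPM to 51.2 and 48.7 CPM, and the proliferation antigen Mki67 from 477 and 501 CPM to 212 and 239 CPM. In each of these genes the largazole libraries kept 33.6% to 46.1% of the DMSO mean. Among replication genes the helicase subunit Mcm5 fell from 222.9 and 225 CPM to 75.9 and 68.7 CPM (log2 fold change -1.63 ± 0.08, adjusted p = 5.22e-07), its partner Mcm3 from 178 and 173 CPM to 71.9 and 62.4 CPM, the DNA ligase Lig1 from 156 and 159 CPM to 55.5 and 52.3 CPM, and the ribonucleotide reductase subunit Rrm2 from 226 and 227 CPM to 86.8 and 76.1 CPM. Among repair genes the checkpoint kinase Chek1 fell from 35.1 and 35.8 CPM to 14.9 and 15.3 CPM and Brca1 from 90.7 and 94.5 CPM to 47.8 and 48.1 CPM.

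**Figure D4:**
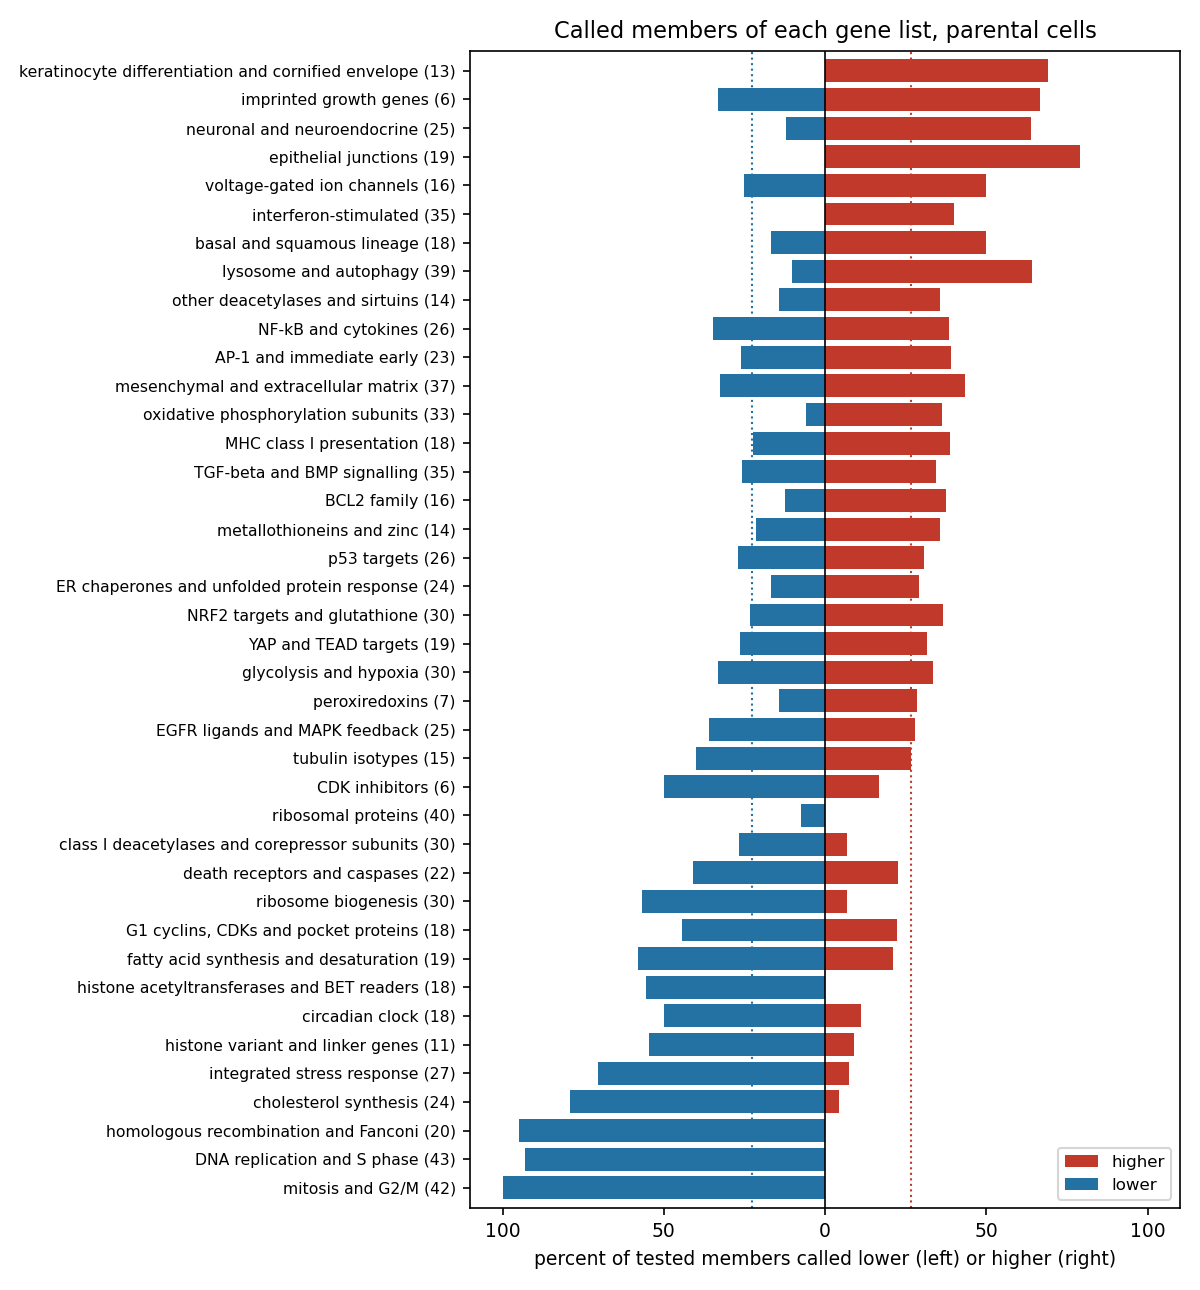
Bars give the percent of the tested members of each gene list (number tested in brackets) called lower (blue, left) or higher (red, right), with the lists ordered by median log2 fold change and lists of under 5 tested members left out. Dotted lines mark the same percent over all genes tested, 22.6% lower and 26.8% higher; the mitosis, S phase and recombination lists lie far to the left, and the keratinocyte and junction lists have no member called lower.

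Many promoters of the division genes carry known cell cycle elements, and windows that hold them are printed for some of the genes just described. Mitotic genes are known for a cell cycle homology region, TTTGAA, next to CCAAT boxes, and S phase genes for E2F sites, here searched as either TTCCCGC or, in its other common form, TTGGCGC. The mitotic element TTTGAA was found on either strand in 27 of the 37 windows of the mitosis list (73%), in 1424 of the 12160 windows of tested genes (11.7%) and in 5878 of all 32851 windows (17.9%). It was found in 112 of the 408 windows of all genes lowered at least 2-fold (27.5%) and in 5 of 42 S phase windows (11.9%). The E2F-type letters were found in 21 of 42 S phase windows (50%), in 8 of 15 recombination windows (53.3%) and in 6 of 37 mitosis windows (16.2%), beside 1446 of those of tested genes (11.9%) and 2236 of all (6.81%). CCAAT was found in 28 of the 37 mitosis windows (75.7%), beside 38.2% over tested genes and 37.4% over all. The windows printed are Plk1 (chr7:122159185-122159484, plus strand), Kif23 (chr9:61946750-61947049, minus strand) and Mcm3 (chr1:20820263-20820562, minus strand), on GRCm38.p6. They are shown because they hold matches. The window of the replication gene Mcm10 and the 1 window looked at of the 3 of Lig1 held no E2F-type letters. Capitals mark TTTGAA and the CCAAT box, which reads ATTGG on the other strand, in Plk1 and Kif23, and the E2F-type letters on either strand in Mcm3, where TTGGCGC and its reverse complement overlap. A match describes these letters and is no evidence that a factor binds there.

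Plk1 promoter: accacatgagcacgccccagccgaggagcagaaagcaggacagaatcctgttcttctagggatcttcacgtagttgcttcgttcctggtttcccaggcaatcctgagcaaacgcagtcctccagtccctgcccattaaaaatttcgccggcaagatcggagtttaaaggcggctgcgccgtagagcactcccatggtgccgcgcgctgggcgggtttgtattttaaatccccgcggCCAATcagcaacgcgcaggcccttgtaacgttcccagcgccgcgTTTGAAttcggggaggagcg
Kif23 promoter: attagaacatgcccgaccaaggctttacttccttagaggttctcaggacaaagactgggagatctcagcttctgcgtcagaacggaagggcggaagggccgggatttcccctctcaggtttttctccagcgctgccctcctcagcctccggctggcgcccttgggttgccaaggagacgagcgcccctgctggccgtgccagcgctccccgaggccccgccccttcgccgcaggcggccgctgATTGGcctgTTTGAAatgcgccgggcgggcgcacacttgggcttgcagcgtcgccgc
Mcm3 promoter: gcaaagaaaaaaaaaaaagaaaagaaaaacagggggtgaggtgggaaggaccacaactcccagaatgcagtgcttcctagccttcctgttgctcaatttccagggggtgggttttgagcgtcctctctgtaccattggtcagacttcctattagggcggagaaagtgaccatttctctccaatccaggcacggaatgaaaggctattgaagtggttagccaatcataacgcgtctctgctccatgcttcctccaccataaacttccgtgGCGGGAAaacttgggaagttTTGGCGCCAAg

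**Figure D5:**
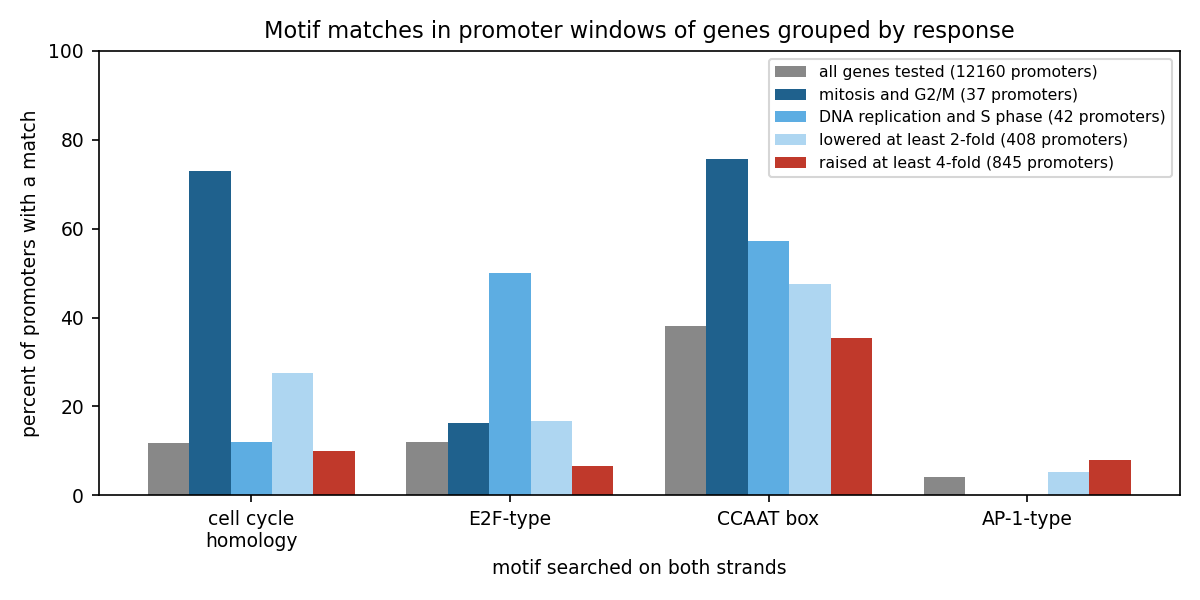
Bars give the percent of promoter windows, 250 bases before to 50 after the start site, that hold each element on either strand, for all genes tested (grey), the mitosis and S phase lists, genes lowered at least 2-fold (blues) and genes raised at least 4-fold (red). The cell cycle homology element (TTTGAA) stands at 73% in the mitosis list against 11.7% over tested genes, and the E2F-type element at 50% in the S phase list against 11.9%.

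Genes raised at least 4-fold had on average 14.4 CpG dinucleotides in the window, fewer than the 20.7 of all genes tested. At a matched low level, under 1 CPM in the KD DMSO libraries, the raised genes had 14.5 and the genes not called 13.9. Of 105 tested lincRNAs 44 were higher and 6 lower (median 0.86), and of 74 antisense genes 28 were higher and 3 lower (median 0.71), beside 26.8% and 22.6% over all genes tested. Of these, 24 and 13 had under 10 counts in every DMSO library, so they were tested only through the largazole libraries. Among genes at 1 to 5 CPM in the KD DMSO libraries, 10 of 33 lincRNAs (30.3%) and 13 of 38 antisense genes (34.2%) were higher, beside 480 of 1160 protein-coding genes (41.4%). Antisense reads cannot be told from those of the partner gene where the counting did not use strand.

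Regulators of G1 were split. Of 18 G1 cyclins, CDKs and pocket proteins 4 were higher and 8 lower, the higher count being 2 without any 1 of the parental libraries. The G1 kinase Cdk4 fell from 389 and 384 CPM to 181 and 180.0 CPM (log2 fold change -1.10 ± 0.11) and Cdk2 from 55.5 and 57.2 CPM to 28.7 and 28.3 CPM, with exons that overlap Pmel. The ubiquitin ligase subunit Skp2, which targets CDK inhibitors, fell from 63.0 and 65.1 CPM to 28.9 and 30.7 CPM. The pocket protein Rb1, which holds back E2F factors, rose from 17.2 and 18.2 CPM to 37.1 and 42.2 CPM (log2 fold change 1.17 ± 0.13), and E2f2 rose from 17.1 and 18.0 CPM to 25.9 and 27.1 CPM whereas E2f1 fell from 83.1 and 86.0 CPM to 51.7 and 48.2 CPM. Cdkn1a, which encodes p21, was not raised at 18 h. It stood at 190.2 and 189.6 CPM with DMSO and at 162 and 157 CPM with largazole, a log2 fold change of -0.25 ± 0.09 (adjusted p = 0.0396). That call was lost under 9 of 20 other settings, with an adjusted p of up to 0.161, among them leaving out any 1 of the parental libraries, and its direction was negative in all 20. Of 6 tested CDK inhibitors 3 were lower, 1 without any 1 of the parental libraries, and 1 was higher. The p18 gene Cdkn2c fell from 73.2 and 72.3 CPM to 44.1 and 44.8 CPM, and the imprinted p57 gene Cdkn1c went from 10 and 5 counts to 49 and 42 (log2 fold change 2.50 ± 0.43, or 3.13 without DMSO replicate 1).

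The drug's own targets changed little in RNA. Hdac1 rose from 158 and 166 CPM to 225 and 222 CPM (log2 fold change 0.46 ± 0.08, adjusted p = 0.000692) and Hdac2 fell from 193 and 183 CPM to 138 and 147 CPM (-0.40 ± 0.08, adjusted p = 0.00292). Hdac3 stood at 121 and 111 CPM and then at 116 and 108 CPM, so the groups overlapped and it was not called (-0.05 ± 0.09, adjusted p = 0.643, with the sign turned to 0.03 by upper-quartile scaling and 0.01 by library totals). Of 30 class I deacetylases and corepressor subunits 8 were lower and 2 higher, with a median of -0.17. Over all genes tested 22.6% were lower and 26.8% higher. The lower count was 13 or 14 without either KD largazole library, and the higher count 1 without any 1 parental library, without KD DMSO replicate 2 or with DESeq2. The higher count was 4 without either KD largazole library, with the parental libraries alone, and with upper-quartile or library-total scaling. The NuRD helicase Chd3 fell from 236 and 256 CPM to 99.8 and 103 CPM (-1.28 ± 0.11), the NuRD subunit Mbd3 from 170 and 159 CPM to 100.4 and 93.8 CPM, and the histone chaperone Rbbp7 from 327 and 329 CPM to 212 and 205 CPM. Of 14 other deacetylases and sirtuins 5 were higher and 2 lower, the higher count being 2 or 3 without DMSO replicate 1 or 2 or largazole replicate 1. The tubulin deacetylase Sirt2 rose from 49.99 and 50.9 CPM to 113 and 106 CPM (1.11 ± 0.10) and the class IIa enzyme Hdac5 fell from 119 and 115 CPM to 70.8 and 64.7 CPM. Of 18 histone acetyltransferases, ING family proteins and BET readers 10 were lower and none higher. The histone acetyltransferase Hat1, which acetylates new histone H4, fell from 103 and 96.9 CPM to 51.5 and 43.4 CPM. The acetyl-lysine reader Brd3 fell from 72.0 and 74.5 CPM to 47.1 and 50.8 CPM. The ING family member Ing1 fell from 73.8 and 74.5 CPM to 39.3 and 39.5 CPM.

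Of 11 histone variant and linker genes 6 were lower and 1 higher, or 2 higher without either KD largazole library or with the parental libraries alone. H1f0, the linker histone of resting cells and a classic gene induced by deacetylase inhibitors, was lower here, at 413 and 405 CPM with DMSO and at 280.2 and 273 CPM with largazole (log2 fold change -0.56 ± 0.08, adjusted p = 0.000392). The damage-linked variant H2afx fell from 164 and 152 CPM to 52.98 and 44.95 CPM (-1.69 ± 0.12) and the centromere variant Cenpa from 110 and 109 CPM to 51.6 and 46.5 CPM. The linker histone H1fx was the 1 called higher with all 8 libraries, from 14 and 12 counts to 121 and 90 (2.93 ± 0.31), and its exons overlap Gm5577.

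The single genes lowered most strongly had other roles. Adcy8, a calcium-stimulated adenylyl cyclase (chr15:64697084-64922296, minus strand), had 92 and 113 counts with DMSO and 11 and 5 with largazole, a log2 fold change of -3.73 ± 0.34 (-4.42 without largazole replicate 1). Esm1, a secreted proteoglycan first known from endothelium (chr13:113209659-113218098, plus strand), fell from 147 and 141 CPM to 15.1 and 16.8 CPM, so that 11.1% of the DMSO mean was left (-3.18 ± 0.10, adjusted p = 3.56e-08). The alarmin cytokine Il33 (chr19:29925114-29960718, plus strand) fell from 373 and 366 CPM to 62.0 and 58.2 CPM (-2.62 ± 0.08, adjusted p = 2.71e-08). The locus named D17H6S56E-5 fell from 1679 and 1606 CPM to 237 and 240 CPM, which makes it the lowered gene of the rule with the highest DMSO level. The neuronal pentraxin Nptx1 fell from 162 and 164 CPM to 25.5 and 24.98 CPM and the axon guidance receptor Plxna4 from 74.98 and 78.1 CPM to 12.3 and 14.96 CPM, so neuronal genes were among the most lowered as well. The replication-linked DNA glycosylase Neil3 had 228 and 250 counts and then 34 and 28, and the mitotic kinesin Kif15 fell from 54.4 and 52.7 CPM to 11.5 and 12.1 CPM. The secreted hormone Stc1, the G protein regulator Rgs16, the integrin-like Itgbl1, the mitochondrial folate enzyme Mthfd1l and the cadherin Cdh26 had log2 fold changes of -2.37, -2.22, -2.12, -2.11 and -2.10. The clock output factor Dbp, whose exons overlap Sphk2, had 107 and 111 counts and then 20 and 15, and the predicted gene Gm21975 had 145 and 117 and then 8 and 37, with a log2 fold change of -2.62 that ranged from -4.09 to -1.93 when a largazole library was left out. Of 18 circadian genes tested 9 were lower and 2 higher (1 without either DMSO library or largazole replicate 2), and the Dbp relative Tef fell from 58.2 and 59.4 CPM to 19.6 and 21.4 CPM.

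Biosynthetic programs of growing cells were lower. Of 24 cholesterol synthesis genes 19 were lower and 1 higher, with a median log2 fold change of -0.89. The isoprenoid enzyme Idi1 fell from 285 and 272 CPM to 104 and 103 CPM (-1.43 ± 0.08, adjusted p = 7.56e-07) and the cyclase Lss from 135 and 141 CPM to 48.5 and 53.2 CPM. The sterol reductase Tm7sf2 rose, from 16.2 and 16.2 CPM to 40.3 and 39.0 CPM, and its exons overlap Vps51. CCAAT, a companion of sterol regulatory elements, was found in 16 of 19 windows of the list (84.2%), beside 38.2% over tested genes. Other lowered lists held it often too, in 75.7% of mitosis, 66.7% of recombination and 57.1% of S phase windows. Of 19 fatty acid synthesis genes 11 were lower and 4 higher. The fatty acid synthase Fasn fell from 738 and 763 CPM to 263 and 267 CPM (-1.50 ± 0.12) and the phosphatidate phosphatase Lpin1 from 54.4 and 63.8 CPM to 16.6 and 15.8 CPM, while the acetate-activating enzyme Acss2, whose exons overlap Gss and Ggt7, rose from 24.4 and 20.5 CPM to 73.4 and 76.9 CPM.

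Of 27 integrated stress response genes, which ATF4 drives to supply amino acids and one-carbon units, 19 were lower and 2 higher (1 without any 1 of the parental or KD DMSO libraries), with a median of -0.58. The mitochondrial serine enzyme Shmt2 fell from 812 and 835 CPM to 356 and 332 CPM (-1.26 ± 0.07), its pathway neighbour Mthfd2 from 254 and 246 CPM to 127 and 115 CPM, the transcription factor Atf5 from 173 and 166 CPM to 82.9 and 67.8 CPM, and the cystine importer Slc7a11 from 28.5 and 32.4 CPM to 13.8 and 16.7 CPM. Of 30 ribosome biogenesis genes 17 were lower and 2 higher, with none higher without any 1 of the parental libraries or with no filter, and 1 without either KD DMSO library or with DESeq2. The nucleolar chaperone Npm1 fell from 1141 and 1074 CPM to 656 and 596 CPM (-0.82 ± 0.11), and the processome subunit Utp20 from 120.0 and 118 CPM to 58.3 and 64.5 CPM. Of the ribosomal proteins themselves, 3 of 40 were lower and none higher, with a median of -0.15. That count depended on the fit, at 22 with only the 4 parental libraries, 31 with length and GC trends removed, 16 and 21 without either KD largazole library, and 0 or 1 without any 1 of the parental libraries or KD DMSO replicate 1. The chaperone Hsp90ab1 fell from 4598 and 4491 CPM to 2943 and 2810 CPM (-0.66 ± 0.08).

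Of 15 tubulin isotypes tested 4 were higher and 6 lower. The widely used Tubb5 fell from 2225 and 2169 CPM to 1327 and 1212 CPM, Tuba1b from 2054 and 2115 CPM to 1237 and 1097 CPM and Tuba1c from 878 and 869 CPM to 482 and 458 CPM. The neuronal isotypes Tubb3 (28.0 and 24.6 CPM to 94.5 and 91.8 CPM, log2 fold change 1.83 ± 0.13) and Tubb2b (73.6 and 72.5 CPM to 241 and 217 CPM, 1.65 ± 0.09) rose.

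Lysosomal genes formed a raised group with substantial levels in untreated cells. Of 39 tested lysosome and autophagy genes 25 were higher and 4 lower (2 without any 1 parental library), with a median of 0.36. The proton pump subunits Atp6v0a1 (46.4 and 39.1 CPM to 132 and 138 CPM, log2 fold change 1.66 ± 0.10) and Atp6v0d1 (57.7 and 52.2 CPM to 166 and 166 CPM) rose. The autophagosome protein Map1lc3b rose from 123 and 128 CPM to 365 and 339 CPM and the protease Ctsd from 648 and 651 CPM to 1200 and 1189 CPM. The metal-binding Mt2 and Mt1 rose as well, Mt2 from 15.2 and 14.3 CPM to 80.3 and 76.4 CPM (2.41 ± 0.19) and Mt1 from 43.0 and 41.9 CPM to 124 and 108 CPM. The glutathione transferase Gsta4 went from 0.887 and 0.607 CPM to 29.8 and 28.9 CPM (5.29 ± 0.28), although the NRF2 target and glutathione list it belongs to was mixed, with 11 of 30 higher and 7 lower (11 without either KD largazole library). Of 7 peroxiredoxins and related genes 2 were higher and 1 lower, beside 26.8% and 22.6% of all genes tested. Those higher were the peroxidases Prdx1 (821 and 774 CPM to 1429 and 1350 CPM) and Prdx5 (48.0 and 46.4 CPM to 104.9 and 88.1 CPM). Prdx4, a peroxidase of the endoplasmic reticulum, fell from 101.4 and 96.6 CPM to 74.0 and 66.9 CPM (-0.49 ± 0.13, adjusted p = 0.0115). The lower count was 0 without DMSO replicate 1 or largazole replicate 2 and 2 without either KD largazole library. Prdx6 stood at 297 and 283 CPM and then at 257 and 233 CPM and was not called (adjusted p = 0.081).

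Innate immune genes were mixed, and their counts are to be read beside the 26.8% higher and 22.6% lower over all genes tested. Of 35 interferon-stimulated genes 14 were higher and none lower, with a median of 0.84, and 9 were higher without DMSO replicate 1, without largazole replicate 2, or with limma-voom. The levels were low. The GTPase Gbp2 went from 3.77 and 3.44 CPM to 11.7 and 11.9 CPM (1.70 ± 0.20), the RNA sensor enzyme Oas3 from 1.48 and 3.64 CPM to 11.1 and 12.9 CPM (2.21 ± 0.45, or 3.0 without DMSO replicate 2), and the interferon regulator Irf7 from 1.41 and 1.62 CPM to 6.40 and 7.38 CPM (2.18 ± 0.52), a call lost with limma-voom (adjusted p = 0.0711). The common responders Ifit1 and Mx1 were not called, Ifit1 being at 2.66 and 2.50 CPM and then 2.45 and 3.69 CPM. Of 26 NF-kB and cytokine genes 10 were higher and 9 lower, the first falling to 6 without largazole replicate 2 and the second to 4 or 5 without DMSO replicate 2 or either largazole library. Relb (25.5 and 27.9 CPM to 10.96 and 10.4 CPM) and Nfkb2 (118 and 114 CPM to 62.3 and 60.6 CPM), the noncanonical NF-kB pair, fell with Il33, and the macrophage growth factor Csf1 (218 and 211 CPM to 404 and 398 CPM) and the chemokine Ccl2 (63.2 and 63.2 CPM to 119 and 110.3 CPM) rose. Of 18 MHC class I presentation genes 7 were higher and 4 lower. The trimming peptidase Erap1 fell from 29.1 and 25.4 CPM to 9.81 and 8.96 CPM and H2-Q4 from 48.1 and 52.4 CPM to 17.4 and 19.5 CPM, while H2-T22 and H2-T23 rose by 1.11 and 1.12 on the log2 scale. H2 genes are near-identical copies, so their separate values are uncertain.

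Immediate early and growth factor lists held genes called in both directions, and their shares are to be read beside the 26.8% higher and 22.6% lower over all genes tested. Of 23 AP-1 and immediate early genes 9 were higher, 4 or 5 without any 1 of the parental libraries, and 6 lower. The AP-1 subunits Fosb (33.2 and 27.3 CPM to 7.36 and 7.98 CPM, -1.98 ± 0.14), Fosl1 (278 and 268 CPM to 124 and 116 CPM) and Jun (366 and 374 CPM to 195 and 191 CPM) fell, and the transcription factor Klf2 (11.9 and 14.98 CPM to 42.0 and 40.5 CPM) and the MAPK phosphatase Dusp1 (12.9 and 11.6 CPM to 37.3 and 32.7 CPM) rose. Of 35 TGF-beta and BMP genes 12 were higher and 9 lower (5 without DMSO replicate 2 or largazole replicate 1), with the ligand Bmp4 rising from 17.4 and 20.4 CPM to 62.0 and 59.3 CPM and its relative Bmp2 falling from 60.0 and 63.4 CPM to 20.3 and 21.8 CPM. Of 25 EGFR ligand and MAPK feedback genes 7 were higher and 9 lower. The receptor Erbb3 rose from 1.85 and 2.09 CPM to 10.7 and 9.56 CPM (2.35 ± 0.28), and the ERK target Etv5 fell from 177 and 182 CPM to 102 and 102 CPM. Of 19 YAP and TEAD genes, which are targets together with Yap1, Wwtr1, Tead1 and Tead4 themselves, 6 were higher and 5 lower. This is near the shares over all genes. Yap1 and Wwtr1 were among the 5 lower. That count fell to 3 with scaling by library totals, and it also fell without either DMSO library or largazole replicate 1.

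Cell death, damage and metabolic lists also held calls in both directions, as did all genes tested (26.8% higher and 22.6% lower). Of 26 p53 targets 8 were higher and 7 lower (4 without largazole replicate 1), near those shares, with a median of 0.07. The damage-repair gene Ddb2 rose from 2.66 and 2.63 CPM to 5.99 and 5.93 CPM, and the growth arrest gene Gadd45a fell from 48.7 and 48.1 CPM to 28.9 and 25.8 CPM. Of 16 BCL2 family genes 6 were higher and 2 lower (1 without largazole replicate 2). The BH3 protein Bid rose from 20.04 and 18.2 CPM to 42.0 and 44.0 CPM and the survival protein Bcl2 from 19.2 and 19.03 CPM to 27.9 and 34.9 CPM, while Bcl2l11, the BIM gene, stood at 32.5 and 32.1 CPM and then at 30.6 and 30.2 CPM and was not called (adjusted p = 0.475). Of 22 death receptor and caspase genes 9 were lower and 5 higher, the second being 0 or 1 without any 1 of the parental libraries. The inflammatory caspase Casp1 fell from 36.7 and 39.4 CPM to 16.5 and 15.9 CPM, and the adaptor Fadd from 14.9 and 17.8 CPM to 8.10 and 9.10 CPM. Of 24 ER chaperone genes 7 were higher and 4 lower. The first count was 2 to 4 without either DMSO library or largazole replicate 1, and the second 1 or 2 without any 1 parental library and 7 without either KD largazole library. Of 30 glycolysis and hypoxia genes 10 were higher and 10 lower (6 without largazole replicate 2). The muscle phosphofructokinase Pfkm rose from 71.1 and 67.1 CPM to 129 and 138 CPM and the liver form Pfkl fell from 326 and 316 CPM to 173 and 159 CPM. Of 33 oxidative phosphorylation subunits 12 were higher, but 2 or 3 without either DMSO library or largazole replicate 1, and 2 were lower. The lower count was 0 without any 1 parental library, 4 and 5 without KD largazole replicate 1 and 2, 5 with the parental libraries alone and 8 with length and GC trends removed. It was 0 with upper-quartile or library-total scaling and 1 without either KD DMSO library, with DESeq2 or with a stricter filter. Of 6 tested imprinted growth genes 4 were higher and 2 lower, the second being 0 without largazole replicate 1 and 1 without any other parental library or KD DMSO replicate 1.

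The same contrast was made in PRDX6 knockdown cells, where 5971 of the 12517 genes tested were called, beside 6175 (49.3%) in parental cells. Those called in the same direction in both numbered 4869, which is 78.9% of the 6175 parental calls and 81.5% of the KD calls. The 2 contrasts share no library, but they share the line, the sequencing study, the filter and 1 fit. That fit used 1 estimate of the spread of a gene for both, so the 2 sets of calls are not independent. A test of the difference between the responses called 29 of 12517 genes (0.232%), with 5 higher and 24 lower in the KD cells. That count is not stable: it was 2 or 3 without any 1 parental library, 2 and 13 without KD DMSO replicate 1 and 2, and 497 and 544 without KD largazole replicate 1 and 2. The KD largazole replicates had the widest scatter, with an SD over genes of the log2 difference between replicates of 0.359, beside 0.194 to 0.218 in the other 3 groups.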

How the data were processed

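RNA of 8 A223 libraries was column-purified and polyA-selected into stranded libraries, per the labels' protocols, and the build was mm10, per the submitters' processing notes. How reads were aligned and counted, with which annotation and with or without strand, is not given in the sources used here. Each value is an estimated count for a gene symbol, deposited without normalization: none is negative, up to 2.83% in a library are not whole, and library totals differ. They were rounded to whole numbers. Of 24411 rows, 27 had symbols turned into dates (at most 0.312% of counts) and could not be named. Mitochondrially encoded genes were not analysed here.

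The test was edgeR 4.0.16's two-sided quasi-likelihood F test fitted to the 8 libraries together (a mean for each of the 4 groups and a shared spread), TMM scaling, and filterByExpr (minimum count 10, total 15). Adjusted p is Benjamini-Hochberg over 12517 genes, and SE is the log2 fold change over the square root of F. The common biological coefficient of variation was 0.0946, and the code was tested on simulated data. Folds from 0 counts use a floor of 3 counts per library, ratios from 1 to 3 counts an exact 95% binomial interval. Coordinates and exon overlaps are from GENCODE on GRCm38, and promoters from RefSeq on GRCm38.p6, which held 9523 of the tested genes.

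The members, the 41 gene lists (1087 of 1090 entries matched by symbol, 2 by an older one) and the naming rule were chosen with earlier results of these data known. The rule took Hdac1, Hdac2, Hdac3, Cdkn1a, H1f0, the 15 most raised and 15 most lowered called genes with 5 CPM or more in the higher group and no overlap between groups, and up to 5 called members of each list described, by size of change. Other genes were named after their values were seen. Some genes that the rule or a list holds are not reported here by name, but they are in the counts. Alternatives were RLE, upper-quartile and library-total scaling, no filter and 2 stricter filters, DESeq2 1.42.0, voom in limma 3.58.1, the 4 parental libraries alone, a replicate block, Rn45s left out, length and GC trends removed, and each library left out.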

Additional observations from a re-analysis of the deposited data

Results flagged for a closer look

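The response to largazole differed between parental and PRDX6 knockdown cells, by a test of the difference itself (edgeR's quasi-likelihood test, adjusted over all genes), in 6 of the 262 named genes. Values are log2 fold changes in the knockdown minus those in parental cells. The difference was 1.11 for Il33 (adjusted p = 0.0038), with -2.62 in parental and -1.51 in knockdown cells, and 0.89 for Itgbl1 (adjusted p = 0.0361), with -2.12 and -1.23. It was -1.09 for Loxl2 (adjusted p = 0.0318) and -1.08 for Thy1 (adjusted p = 0.0266), with 1.91 and 1.90 in parental cells and 0.82 for each in knockdown cells. It was -0.85 for the ER chaperone Hyou1 (adjusted p = 0.00775), with -0.37 in parental and -1.22 in knockdown cells, and -1.26 for the cystine importer Slc7a11 (adjusted p = 0.0394), with -1.0 and -2.25.

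Leaving out any 1 parental or KD DMSO library ended the call for Itgbl1, Loxl2, Thy1, Hyou1 and Slc7a11, with edgeR adjusted p of 0.0611 to 0.375. For Il33 it gave adjusted p of 0.0334 to 0.076, and the call held only without parental largazole replicate 1 (0.0455) or KD DMSO replicate 2 (0.0334). Over the 19 alternatives that could be fitted no difference changed sign. Scaling by library totals ended the call for Itgbl1, Loxl2 and Slc7a11, and limma-voom that for Slc7a11. Of the 12517 genes tested, 29 were called in this test.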

How the results depend on the processing

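Of 5240 values of 262 named genes under 20 alternatives, 5131 kept their direction and side of the threshold and 107 lost their call, in 30 genes. Hdac3, not called under any of the 20, changed sign, to 0.03 with upper-quartile scaling and 0.01 with library totals. Numbers of genes called over the whole table stayed within 1.5 times of 3349 higher and 2826 lower, and the higher ones were 50.9% to 63.4% of those called, beside 54.2%. Depth limits the genes with few DMSO counts, whose ratios have wide intervals. Ribosomal proteins lower, 3 in the main test, were 1 with upper-quartile scaling, library totals or the stricter filter, 6 without a filter, 5 with DESeq2, 22 with the parental libraries alone, 8 with the replicate block and 31 with length and GC trends removed. CDK inhibitors lower were 1 with upper-quartile scaling, interferon-stimulated genes higher were 9 with limma-voom, and class I deacetylase and corepressor genes lower were 14 with the parental libraries alone. Genes that differed between the genotypes' responses, 29, were 114 without a filter, 83 with DESeq2, 119 with the replicate block and 199 with the trends removed. The cause was not tested.

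Leaving out 1 library at a time moved the genes higher from 2309 to 4077 and lower from 1914 to 3806. Over the same 8 fits, genes lower were 6 to 14 for class I deacetylases and corepressors, 1 to 3 for CDK inhibitors and 0 to 21 for ribosomal proteins. Genes higher were 2 to 6 for other deacetylases and sirtuins, 2 to 8 for ER chaperones, 9 to 18 for interferon-stimulated genes, 6 to 12 for NF-kB and cytokines, 4 to 10 for AP-1 and immediate early genes, and 2 to 18 for oxidative phosphorylation. Genes that differed between the responses were 2 to 544. These fits have fewer samples, and a lone sample is assumed to vary like the other groups.

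Replicate numbers were shared by the groups but no source says that they pair the libraries. The differences between replicates 1 and 2 correlated over genes at 0.146 between the parental groups, 0.343 between the KD groups, 0.364 between the largazole groups and 0.00167 between the DMSO groups, and with the replicate number as a block 3667 genes were higher and 3241 lower.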
